A study of Mus musculus with 9 samples.

Results

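The genes described here are 7 genes of methylglyoxal and glycation clearance, namely Glo1, Hagh, Haghl, Glod4, Akr1a1, Akr1b3 and Ager. They were listed by symbol and not picked by their values, though with earlier results of these data known, out of 26602 genes with a count in any library. All 7 had a count, and all 7 were among the 18127 genes compared between genotypes, each with 10 or more counts in all. Midbrain tissue containing the substantia nigra was profiled from 4 DJ-1+/+ and 5 DJ-1-/- animals aged 3 to 4 months, with 1 library each. DJ-1-/- mice carry a targeted allele of Park7, the gene for DJ-1, in every cell from conception, so that the comparison concerns lifelong loss and not acute loss. The line had been backcrossed to C57BL/6 for 7 generations, and both genotypes came from breeding of heterozygous animals. QuantSeq libraries, which sample the 3′ ends of polyadenylated RNA, were made with unique molecular identifiers (UMIs), random tags by which PCR copies of 1 molecule are counted once. Since fragments come from near the polyadenylated end, counts do not grow with transcript length, and levels of different genes are set side by side below as counts per 1000000 (cpm). Where a 3′ end has copies in the genome, its reads can be split or left out, and such a level is uncertain.

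Methylglyoxal is a reactive dicarbonyl that forms as a by-product of glycolysis, mainly by breakdown of triose phosphates, and it attaches to arginine and lysine residues of proteins and to nucleic acids. The glyoxalase system removes it with glutathione. Glyoxalase 1 converts the adduct of methylglyoxal and glutathione to S-lactoylglutathione, and glyoxalase 2 hydrolyses this to D-lactate and returns the glutathione. Aldo-keto reductases offer a second route, and the receptor RAGE binds proteins that carry advanced glycation end products. DJ-1 itself has been described as a glyoxalase that needs no glutathione and as a deglycase, activities that are still debated, and the comparison asks whether the genes of these routes were expressed at other levels in mice without DJ-1.

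Library totals ran from 841974 to 886085 counts in DJ-1+/+ against 967751 to 1098125 in DJ-1-/- animals, so depth and genotype cannot be told apart by splitting the libraries. Park7 had 132, 105, 113 and 118 counts in DJ-1+/+ against 23, 29, 14, 19 and 19 counts in DJ-1-/- animals, a log2 fold change of −2.71 (95% interval −3.03 to −2.40, adjusted p = 7.44e-08, edgeR's quasi-likelihood test). The labelled tissue was checked with marker genes, and every marker of dopaminergic neurons, astrocytes, oligodendrocytes, microglia and neurons had counts. Summed cpm of 6 dopaminergic markers ran from 314 to 649 in DJ-1+/+ against 510 to 675 in DJ-1-/- animals, with 6 of 6 higher in DJ-1-/- and 3 at an unadjusted p under 0.05. Choroid plexus and cerebellar genes had counts as well. In every library, counts were found for 2 of 6 choroid plexus genes and 3 of 5 cerebellar genes, and for 5 of 6 dopaminergic markers. Summed choroid plexus genes ran from 56.8 to 568 cpm in DJ-1+/+ against 41.3 to 150 in DJ-1-/- mice. The highest DJ-1+/+ libraries were replicate 4 at 568 and replicate 1 at 262 cpm. All 6 of these genes were lower in DJ-1-/- mice, and 5 met the same cutoff as the dopaminergic markers. Summed cerebellar genes ran from 148 to 730 cpm in DJ-1+/+, highest in replicate 1, against 204 to 288 in DJ-1-/- mice. All 5 were lower in DJ-1-/- mice, and 3 met that cutoff, where 2.82% of all genes tested did. Xist was at or under 10 cpm in DJ-1+/+ replicates 1 and 4 and in DJ-1-/- replicate 5, and the others are called libraries with Xist. The part of these differences in the values below was not tested, other than by leaving those libraries out and by a fit with Xist as a covariate.

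The 5 abundant clearance genes differed little in mean level between mice with and without DJ-1. Mean levels in DJ-1-/- mice were between 0.949 and 1.05 times those in DJ-1+/+ mice for Glo1, Hagh, Haghl, Glod4 and Akr1a1. Akr1b3 and Ager were near the limit of detection, and Akr1b3 had a lower mean in DJ-1-/- mice with overlapping values. Of the 7 genes, 0 had an unadjusted p under 0.05 by edgeR's test of quasi-likelihood, where 2.82% of all genes tested (511 of 18127) did. After Benjamini-Hochberg adjustment 0 of the 7 were called, and of all genes tested Park7 alone was (0.00552%). DESeq2's test also gave 0 of 7 at an unadjusted p under 0.05. The cpm of 0 of the 7 separated the genotypes without overlap, where 1.25% of all genes tested did. The adjusted p was 1 for each of the 7 genes. Such a p does not show equal levels. The 95% intervals given with each gene state which sizes of difference remain possible, taking the counts as given. The median log2 fold change of all genes tested was 0.01.

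Glo1, which encodes glyoxalase 1, lies on the minus strand of chromosome 17 from 30584936 to 30626871 (GENCODE M21, GRCm38). Glo1 had 134, 120, 137 and 123 counts in DJ-1+/+ against 144, 151, 148, 144 and 160 counts in DJ-1-/- animals. Scaled to the library totals these were 159, 136, 159 and 139 cpm in DJ-1+/+ against 144, 138, 153, 149 and 156 cpm in DJ-1-/- animals. The higher raw counts of the DJ-1-/- libraries thus went with their greater depth, and all 5 DJ-1-/- levels lay within the DJ-1+/+ range. The means were 148 ± 12.6 cpm (SD, n = 4) and 148 ± 7.25 cpm (SD, n = 5). The log2 fold change was −0.01 (standard error 0.08, 95% interval −0.17 to 0.16), with an unadjusted p of 0.935 in edgeR's test and an exact permutation p of 0.921 (two-sided, smallest possible 0.0159). The interval corresponds to between 0.887 and 1.12 times the DJ-1+/+ level.

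Hagh, which encodes glyoxalase 2, the hydrolase of the second step, lies on the same chromosome from 24840143 to 24864450 on the plus strand. It had 95, 89.8, 91.9 and 93.7 cpm in DJ-1+/+ against 90.1, 96.5, 90.8, 94 and 96.5 cpm in DJ-1-/- animals, from 79 to 83 and from 88 to 106 counts. The genotypes overlapped almost completely, and the 9 libraries were closer to each other than for any other of the 7 genes. The log2 fold change was 0.02 (standard error 0.08, 95% interval −0.16 to 0.19, edgeR unadjusted p = 0.876, exact permutation p = 0.571). This interval is 0.896 to 1.14 times the DJ-1+/+ level, narrower than the 0.876 to 1.17 times that counting error alone gives for the 321 and 474 counts of Hagh summed by genotype. The ratio of the enzymes of both steps also overlapped between the genotypes. Hagh had 0.627 ± 0.0473 counts per Glo1 count (SD, n = 4) in DJ-1+/+ against 0.634 ± 0.0403 (SD, n = 5) in DJ-1-/- animals, with ranges of 0.577 to 0.675 and 0.595 to 0.702. Fahd1, on the opposite strand, overlaps the Hagh gene and had 449 counts over the 9 libraries. The last 300 bases of Hagh matched 5 other genes in part, over 60 to 71 bases at 90% identity or more.

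Haghl encodes a protein related in sequence to glyoxalase 2 whose own substrate is less well defined. It lies on the minus strand of chromosome 17 from 25779843 to 25785673, and was expressed somewhat above Hagh. It had 115, 136, 134 and 103 cpm in DJ-1+/+ against 122, 116, 109, 117 and 115 cpm in DJ-1-/- animals. DJ-1+/+ replicates 2 and 3 were above every DJ-1-/- library, and replicate 4 was below every one. The log2 fold change was −0.08 (standard error 0.09, 95% interval −0.26 to 0.11, edgeR unadjusted p = 0.411, exact permutation p = 0.413). DJ-1+/+ replicates 1 and 4 were the libraries with the highest sums of cerebellar and of choroid plexus genes. Without them the fold change of Haghl was −0.22 on the log2 scale (standard error 0.10, edgeR unadjusted p = 0.0518, adjusted p = 0.999). The 95% interval of that fit, −0.42 to −0.01, leaves out 0 while the unadjusted p is above 0.05. The remaining 2 DJ-1+/+ libraries did not then overlap with the DJ-1-/- libraries, with an exact permutation p of 0.0952, the smallest that 2 against 5 allow. Reads of the Haghl 3′ end bear a further limit, since its last 300 bases are also covered by Narfl on the opposite strand, and the strand setting of the counting is not given in the sources used here. Narfl had 328 counts over the 9 libraries and Haghl 1009.

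Glod4 encodes glyoxalase domain containing 4, a protein with the fold of glyoxalase 1. The gene spans 76120987 to 76243725 on the minus strand of chromosome 11. It had 87.9, 103, 84.9 and 108 cpm in DJ-1+/+ against 100, 90.2, 100, 88.9 and 100 cpm in DJ-1-/- animals. All 5 DJ-1-/- libraries lay between the lowest and the highest DJ-1+/+ library. The log2 fold change was −0.01 (standard error 0.10, 95% interval −0.21 to 0.20, edgeR unadjusted p = 0.947, exact permutation p = 0.952). Its last 300 bases are shared with a transcript annotated as Gemin4 on the same strand, which had 45 counts over the 9 libraries. Gm6330 matched over 295 bases at 96.949% identity and had 4 counts. Vps53, on the same strand, overlaps the Glod4 gene and had 872 counts, but was not among the genes that matched its last 300 bases.

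Akr1a1, the aldehyde reductase of the aldo-keto reductase family, which reduces methylglyoxal and other aldehydes with NADPH, was the most highly expressed of the 7 genes. It lies on the minus strand of chromosome 4 from 116636510 to 116651680, 34.2 Mb from Park7. It had 197, 192, 180 and 160 cpm in DJ-1+/+ against 193, 189, 171, 209 and 199 cpm in DJ-1-/- animals. The highest 2 levels were in DJ-1-/- replicates 4 and 5 and the lowest in DJ-1+/+ replicate 4, with overlap of the others. The means were 182 ± 16.4 cpm (SD, n = 4) and 192 ± 13.8 cpm (SD, n = 5), and the log2 fold change was 0.08 (standard error 0.08, 95% interval −0.09 to 0.25, edgeR unadjusted p = 0.357, exact permutation p = 0.365).

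**Figure D1:**
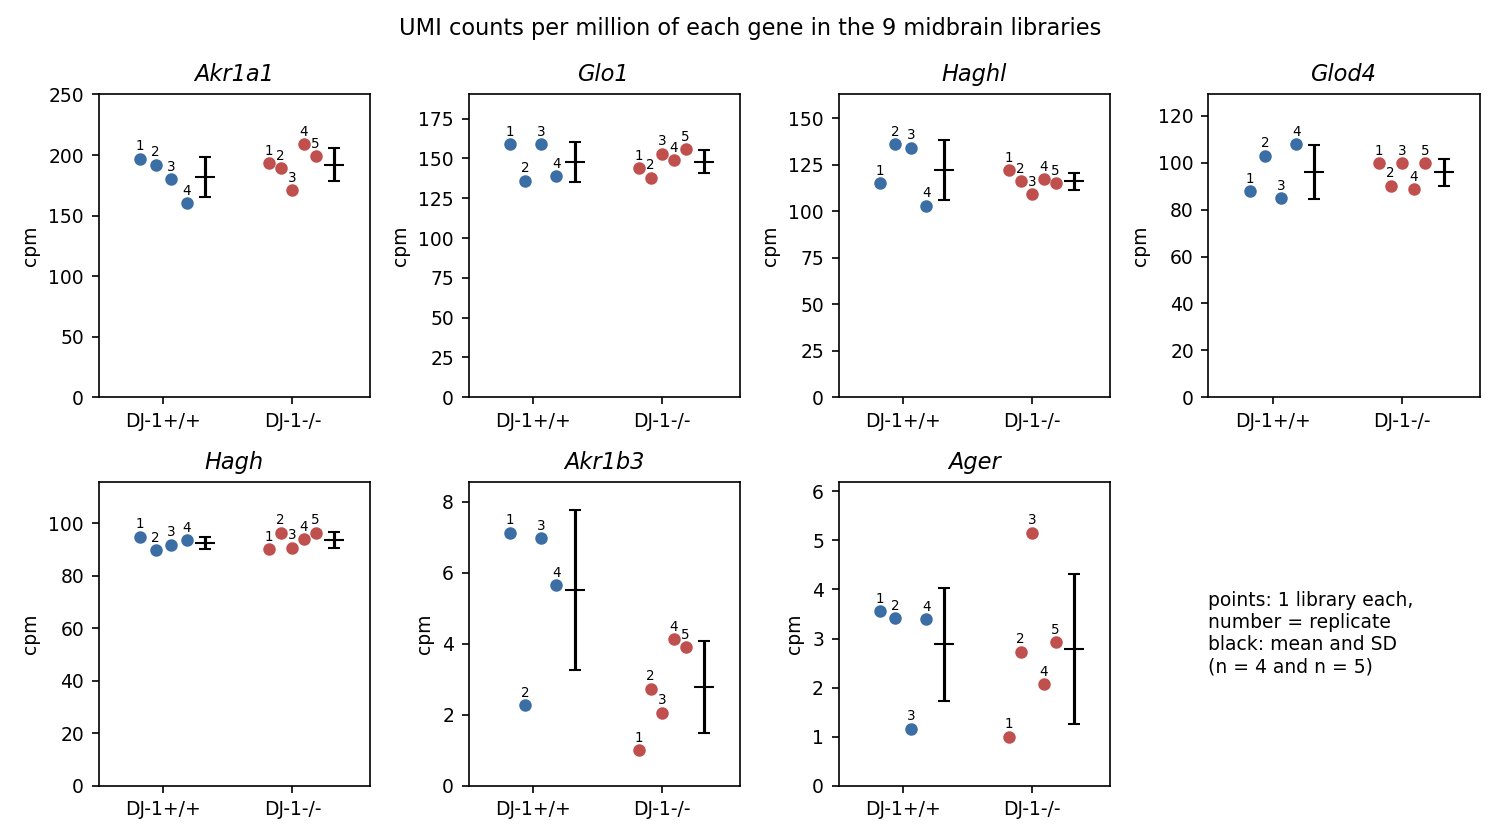
UMI counts per 1000000 (cpm, vertical axis from 0) of each of the 7 genes in 4 DJ-1+/+ (blue) and 5 DJ-1-/- (red) libraries. Each point is 1 library with its replicate number, and black marks give the mean and SD. Glo1, Hagh, Haghl, Glod4 and Akr1a1 overlap between genotypes, and DJ-1+/+ replicate 2 is the library by which Akr1b3 overlaps.

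Akr1b3, mouse aldose reductase, which reduces glucose to sorbitol and also accepts methylglyoxal, had few counts. On the minus strand of chromosome 6 it spans 34302434 to 34317478. Its counts were 6, 2, 6 and 5 in DJ-1+/+ against 1, 3, 2, 4 and 4 in DJ-1-/- animals. Of the DJ-1+/+ libraries, replicates 1, 3 and 4 were above every DJ-1-/- library, and replicate 2 was below 3 of the 5. The means were 5.51 ± 2.26 cpm (SD, n = 4) and 2.77 ± 1.3 cpm (SD, n = 5), against a floor of 3 counts per library that corresponds to between 2.73 and 3.56 cpm. The log2 fold change was −0.96 (standard error 0.51, 95% interval −2.05 to 0.14), with an edgeR unadjusted p of 0.0817 and an exact permutation p of 0.0794. Summed over mice, Akr1b3 had 19 counts in DJ-1+/+ and 14 in DJ-1-/-, a ratio of 0.505 per count sequenced with a 95% counting interval of 0.234 to 1.06. Without DJ-1+/+ replicate 2 the log2 fold change was −1.22 (edgeR unadjusted p = 0.0292, adjusted p = 0.997), and with counts thinned to equal depth it was −0.59. The difference in Akr1b3 was therefore not detectable at this depth with all 9 libraries.

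The 3′ end of Akr1b3, from which these libraries read, is not unique in the genome. Its last 300 bases align over at least 60 bases and with at least 90% identity to 8 other genes, of which 7 are processed pseudogenes. Gm6644 matched at 100% and Gm6736 at 99.667% identity over all 300 bases, and these pseudogenes had 0 or 1 count each over the 9 libraries. Gm38056, which matched all 300 bases at 100% identity in the opposite orientation, had 63 counts. Reads of such an end can be split between copies or left out in counting, so the level of Akr1b3 is uncertain, and the part of its copies in the low counts was not tested. Akr1b10, a related reductase of the same subfamily whose 3′ end matched 1 other gene, had between 36 and 71 counts per library.

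Ager encodes RAGE, the receptor for advanced glycation end products, and lies on the plus strand of chromosome 17 from 34597862 to 34600936. Its counts were 3, 3, 1 and 3 in DJ-1+/+ against 1, 3, 5, 2 and 3 in DJ-1-/- animals. A single library, DJ-1-/- replicate 3, was above 3 counts, so the gene was at or under the floor in 8 of 9 libraries, and nothing is read from its fitted fold change. The means were 2.88 ± 1.15 cpm (SD, n = 4) and 2.78 ± 1.53 cpm (SD, n = 5), with an exact permutation p of 0.937 for the difference. No other gene matched the Ager 3′ end by the same criteria. In these bulk samples fewer cells of a type and less RNA per cell cannot be told apart for any of the genes.

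**Figure D2:**
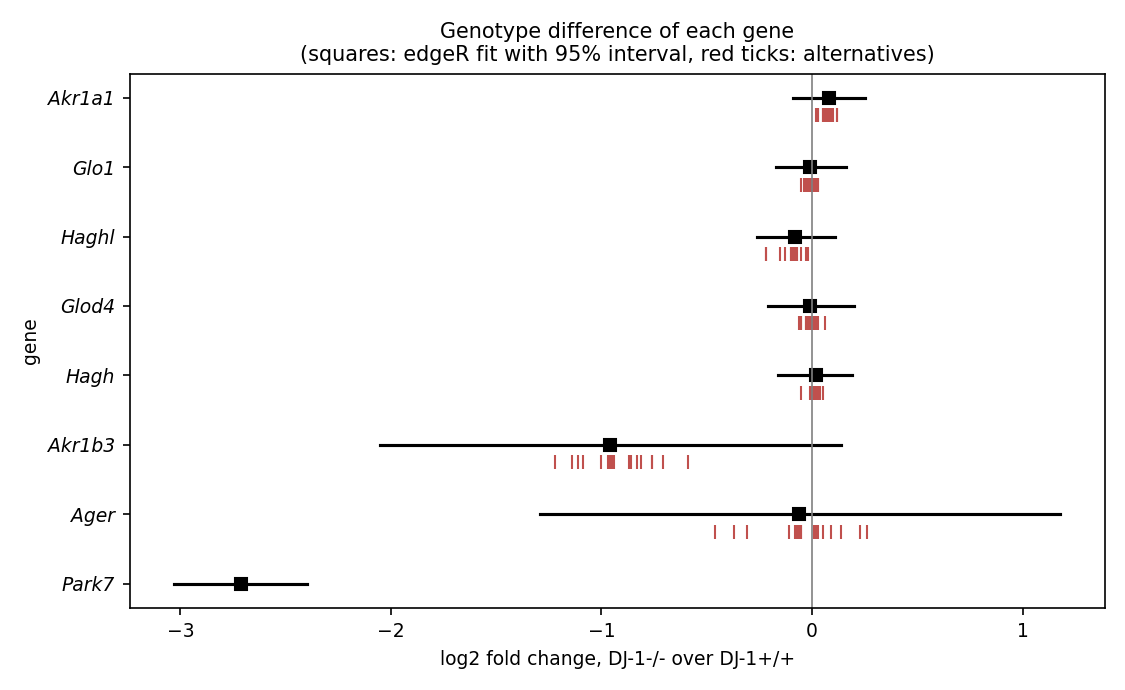
Log2 fold change of DJ-1-/- over DJ-1+/+ (horizontal axis) for the 7 genes and Park7 from edgeR's fit, as squares with 95% intervals, and under the alternative analyses, as red ticks for the 7 genes. The intervals of all 7 genes include 0, from −0.17 to 0.16 for Glo1 to −2.05 to 0.14 for Akr1b3, and Ager is at the limit of detection. Park7, at −2.71, is the check of the labels.

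By counts, the 7 genes fell into a high and a very low tier. Over the 9 libraries Akr1a1 averaged 188 ± 14.9 cpm and Glo1 148 ± 9.24 cpm, and Akr1a1 was above Glo1 in 9 of 9 libraries. Haghl followed with 119 ± 10.8 cpm, below Glo1 in 8 of 9 libraries and above Glod4 in 8 of 9. Glod4 at 96 ± 8.16 cpm and Hagh at 93.1 ± 2.62 cpm did not differ beyond their spread, with Glod4 higher in 5 of 9. Akr1b3 at 3.98 ± 2.2 cpm and Ager at 2.82 ± 1.29 cpm were far below in every library and overlapped each other. The place of Akr1b3 in the low tier is uncertain, given the copies of its 3′ end. Of all genes tested, 97.1% had a lower mean cpm than Akr1a1, 93.3% than Glo1 and 76.8% than Hagh, against 17.4% for Akr1b3 and 12.6% for Ager. The libraries were flat, with the 100 highest genes holding between 3.58% and 3.86% of the counts, so high ranks go with modest counts. The highest gene alone held between 0.107% and 0.142%. The part of UMI counting in this flatness was not tested, and fold changes, spreads and intervals take the counts as given.

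The spread between mice of a genotype was about what counting gives. The coefficient of variation within genotypes was 6.66% for Glo1, 9.07% for Haghl, 9.08% for Glod4 and 8.01% for Akr1a1, where counting at their mean counts gives 8.45%, 9.44%, 10.5% and 7.49%. Of the 6964 genes with a mean count from 50 to below 200, 49.7% were under their counting value, and the median ratio was 1. Hagh had 2.94% where counting gives 10.6%, a ratio of 0.276, which is less spread than counting error itself gives on average. The narrow range of Hagh is thus not a measure of how evenly it was expressed between mice. For Akr1b3 and Ager the spread was 44.5% and 49.1%, with counting values of 52.2% and 61.2%.

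**Figure D3:**
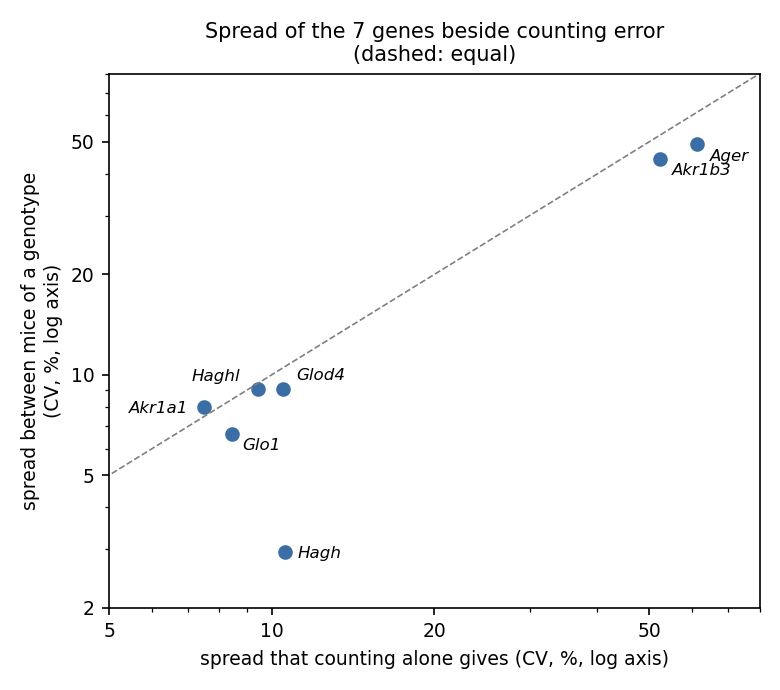
Coefficient of variation within genotypes (vertical, percent, log axis) against the value that counting alone gives at the gene's mean count (horizontal, percent, log axis), 1 point per gene over 9 libraries. The dashed line marks equal values. Of the 7 genes, 6 lie near the line, and Hagh lies below it with 2.94% against 10.6%.

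The genes were compared with each other across mice. Among the 5 genes with at least 20 counts per library, Pearson's r of log2 cpm over the 9 libraries ran from −0.45 for Hagh and Haghl to 0.39 for Haghl and Akr1a1, and r of the glyoxalases Glo1 and Hagh was 0.32. Spearman's rho ran from −0.63 for Glo1 and Glod4, whose r was −0.42, to 0.40 for Haghl and Akr1a1. These values are a description over 9 libraries that share the differences in depth and marker genes given above. Among 10770 genes searched, those most like Glo1 were Sec11a (r = 0.93, rho = 0.87, and r = 0.91 without the 2 libraries farthest from the Glo1 median) and Mtus1 (r = 0.93, rho = 0.90, and 0.90). Kcnc1 was most like Hagh (r = 0.94, rho = 0.98, and 0.93), followed by Ppp1r10 (0.92, 0.85 and 0.85). Jrkl (0.95, 0.98 and 0.89) and Cope (0.93, 0.87 and 0.86) were most like Haghl. For Glod4 the nearest genes were Gm42372 (0.96, 0.92 and 0.93) and Gnao1 (0.95, 0.92 and 0.91), and for Akr1a1 they were Bicd1 (0.97, 0.95 and 0.89) and Sel1l (0.95, 0.95 and 0.85). Each pair is the closest of 10770 candidates, and none was among the 7 genes.

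The surrounding pathway was taken as 71 genes in 8 lists of related enzymes, ligands and receptors, of which 65 were tested. In DJ-1-/- mice 38 of these (58.5%) were higher and 27 lower, where 51.8% of all genes tested were higher (49.2% with RLE size factors, which left 38 list genes higher), and the median log2 fold change was 0.04 against 0.01 over all genes. A single gene, Stab2, had an unadjusted p under 0.05, 0 were called after adjustment, and 0 separated the genotypes without overlap, where 2.82% and 1.25% of all genes tested had such a p or such a separation. With 65 genes these counts are near the share over all genes. All adjusted p values in the lists were 1 in edgeR's test.

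The 8 tested relatives of the glyoxalases by fold were split into 4 higher and 4 lower. Mcee, methylmalonyl-CoA epimerase, had 74.8 ± 7.68 cpm (SD, n = 4) in DJ-1+/+ against 79.7 ± 12.8 cpm (SD, n = 5) in DJ-1-/- animals, and Mblac1, a metallo-beta-lactamase domain protein, 15 ± 3.09 and 13 ± 5.15 cpm. Of 10 genes of D-lactate and glutathione supply 4 were higher and 6 lower. Ldhd, the dehydrogenase that oxidises the D-lactate made by glyoxalase 2, had 35.7 ± 7.85 cpm in DJ-1+/+ against 38.2 ± 2.71 cpm in DJ-1-/- animals, a log2 fold change of 0.09 (95% interval −0.27 to 0.46). Gsr, glutathione reductase, ranged widely, from 15.9 to 59.4 cpm in DJ-1+/+ against 15.5 to 42 cpm in DJ-1-/- animals. None of these genes passed the test.

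Among the other aldo-keto and carbonyl reductases 7 of 9 tested genes were higher, the median log2 fold change was 0.09, and 0 were at an unadjusted p under 0.05. Dcxr, dicarbonyl and L-xylulose reductase, had 25.4 ± 2.64 cpm (SD, n = 4) in DJ-1+/+ against 31.2 ± 4.04 cpm (SD, n = 5) in DJ-1-/- animals (log2 fold change 0.30, edgeR unadjusted p = 0.127). Cbr3, a carbonyl reductase, had 15.3 ± 1.8 and 11.4 ± 2.41 cpm (log2 fold change −0.41, edgeR unadjusted p = 0.144). The ranges of both genes overlapped between the genotypes. A list of aldehyde dehydrogenases, which oxidise methylglyoxal or other aldehydes, also held genes of formaldehyde clearance. Of its 8 genes 3 were higher and 5 lower. Aldh1a1, the cytosolic dehydrogenase found in a subset of dopaminergic neurons, had 145 ± 10.6 and 156 ± 11.9 cpm, and Aldh3a2, fatty aldehyde dehydrogenase, 86.2 ± 8.51 and 78.3 ± 8.67 cpm.

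The triose phosphate steps, where methylglyoxal arises, held 6 genes with 3 higher and 3 lower. Gapdh, which consumes glyceraldehyde 3-phosphate, had 128 ± 7.37 cpm (SD, n = 4) in DJ-1+/+ against 120 ± 9.4 cpm (SD, n = 5) in DJ-1-/- animals, and its level is uncertain, since 286 other genes match its 3′ end, 277 of them pseudogenes. Gpd1, which reduces dihydroxyacetone phosphate, had 73.8 ± 19.2 and 80.3 ± 19.9 cpm. The enzymes that repair early sugar adducts were Fn3k, fructosamine 3-kinase, with 56.5 ± 7.52 and 51.9 ± 7.98 cpm, and its relative Fn3krp. Fn3krp had 44.4 ± 9.81 cpm in DJ-1+/+ against 54.9 ± 3.54 cpm in DJ-1-/- animals, from 34.1 to 54.2 and from 49 to 58.5 cpm. Its log2 fold change was 0.30 (95% interval −0.03 to 0.64, edgeR unadjusted p = 0.0694, exact permutation p = 0.0794). The ranges overlapped, and Mdp1, a phosphatase that is the other gene of that list, had a log2 fold change of −0.05. The edgeR unadjusted p of Fn3krp was 0.0435 without DJ-1+/+ replicate 3 and 0.0235 without DJ-1+/+ replicate 4 (adjusted p = 0.999 in both). It was 0.23 without DJ-1+/+ replicate 2 and above 0.05 in the other fits with a library left out.

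The ligands and receptors on the RAGE side were 19 genes, 15 (78.9%) higher and 4 lower, where 51.8% of all genes tested were higher. The median log2 fold change was 0.06, and 1 was at an unadjusted p under 0.05. The 15 were the same number with RLE size factors, library totals or thinned counts, which all use the same 9 libraries. Of the 15, S100a4, S100a9, Mmp9, Lgals3, Msr1, Cd36, Stab1 and Stab2 had under 10 counts per library on average. Among the 4 lower genes, S100a8 did too. Since genes of a list are not independent either, the tally is a description. Ddost, an oligosaccharyltransferase subunit also described as a glycation product receptor, had 76.2 ± 13.2 cpm (SD, n = 4) in DJ-1+/+ against 87.4 ± 7.86 cpm (SD, n = 5) in DJ-1-/- animals, and Adam10, a protease that sheds RAGE, 93.5 ± 9.97 and 85.3 ± 5.98 cpm. Stab2, a scavenger receptor for glycated proteins best known from sinusoidal endothelium, had 2, 0, 0 and 1 counts in DJ-1+/+ against 3, 4, 4, 4 and 1 counts in DJ-1-/- animals. Its ratio over summed counts of 3 and 16 was 3.65 with a 95% counting interval of 1.05 to 19.6 (edgeR unadjusted p = 0.0477, adjusted p = 1, exact permutation p = 0.0476). The genotypes overlapped through DJ-1-/- replicate 5, and with DESeq2's test 0 of the list genes were at an unadjusted p under 0.05. The Stab2 value rests on single counts. With each library left out its edgeR unadjusted p ran from 0.0155 without DJ-1+/+ replicate 1 to 0.119 without DJ-1+/+ replicate 2 and was above 0.05 in 7 of 9 fits, and it was 0.0503 with the replicate block. Its fitted log2 fold change was 1.72 with all libraries, and 1.34 and 2.69 without those replicates 2 and 1. It was 4.89 in libraries with Xist (edgeR unadjusted p = 0.0043). Without DJ-1+/+ replicates 1 and 4 it was 4.68 (edgeR unadjusted p = 0.00838, adjusted p = 0.999). In both of these fits the DJ-1+/+ libraries that were left had 0 counts, and the values depend on the fit's handling of 0. All 4 endothelial markers had lower fitted levels in DJ-1-/- mice, with summed cpm from 313 to 403 in DJ-1+/+ against 311 to 354 in DJ-1-/- animals and 0 at an unadjusted p under 0.05.

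The neighbours of Glo1 on chromosome 17 were looked up because a segmental duplication that carries Glo1 is known among laboratory mice. Btbd9 had 135 ± 8.53 cpm (SD, n = 4) in DJ-1+/+ against 120 ± 9.24 cpm (SD, n = 5) in DJ-1-/- animals (log2 fold change −0.16, 95% interval −0.34 to 0.01, edgeR unadjusted p = 0.0669). Glp1r had 69.5 ± 26.7 and 72.1 ± 19 cpm. Dnah8, which overlaps Glo1 on the opposite strand, had 0 or 1 counts in DJ-1+/+ against 0 to 3 in DJ-1-/- animals and was not tested. Neither Glo1 nor a tested neighbour passed the test with all libraries. Btbd9 had an edgeR unadjusted p of 0.0379 without DJ-1+/+ replicate 3, 0.0443 and 0.0305 without DJ-1-/- replicates 4 and 5, and 0.0425 with the replicate block, with log2 fold changes from −0.20 to −0.19 in these fits and adjusted p values of 0.999 or 1.

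**Figure D4:**
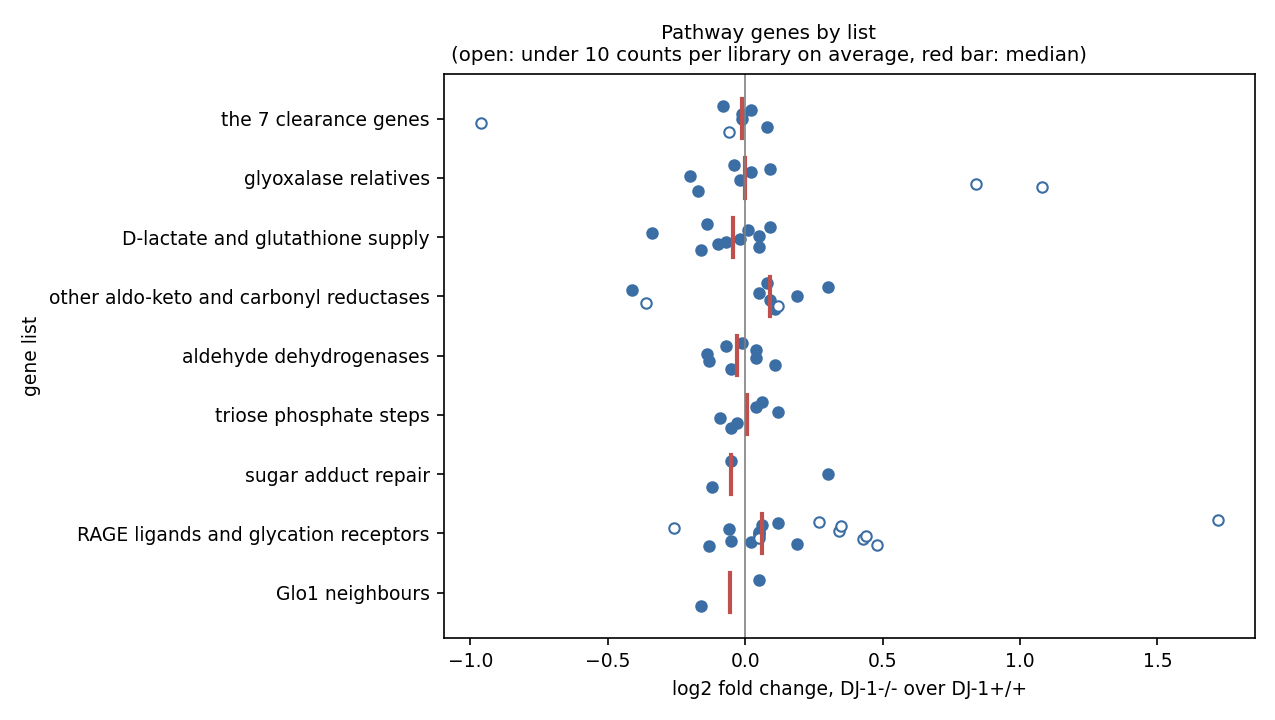
Log2 fold change of DJ-1-/- over DJ-1+/+ (horizontal axis) for the 7 clearance genes and the tested genes of 8 related lists (vertical axis), 1 point per gene, with open points for genes under 10 counts per library on average and red bars for medians. Medians lie between −0.06 and 0.09, and the points far from 0, such as Stab2 at 1.72 and Akr1b3 at −0.96, are open.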

How the data were processed

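The files deposited by the authors hold raw UMI counts per gene, 1 file per animal, and list the genes with at least 1 count. The submitters' processing notes name fastp 0.20.0, STAR 2.7.3a, featureCounts 2.0.0 of Subread, UMI-tools 1.0.0 and the build GRCm38, and the strand setting is not given in the sources used here. The libraries were joined by Ensembl identifier, an unlisted gene was given 0, and symbols and positions came from GENCODE M21, which held 26576 of 26602 genes. Nothing was found that marks 2 libraries as copies of each other (chi-square per degree of freedom from 1.07 to 2.27 over 16 pairs of 1 genotype). Totals are given in the results, and intervals and floors of 3 counts cover counting error only.

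Genes with at least 10 counts over 9 libraries were tested with edgeR 4.0.16 in R 4.3.3 (glmQLFit with defaults, glmQLFTest, TMM, genotype alone), with Benjamini-Hochberg adjustment over all of them. A standard error is the log2 fold change divided by the square root of F. Single genes were compared as cpm by exact two-sided permutation tests in scipy 1.17.1. Alternatives were RLE size factors, library totals, DESeq2 1.42.0, other filters, Xist as a covariate, libraries with Xist alone, libraries without DJ-1+/+ replicates 1 and 4, counts thinned to 841974 per library, each library left out and the replicate number as a block. The script was tested on simulated data. The 3′ ends were compared by BLAST of the last 300 bases of annotated coding transcripts against all GENCODE transcripts.

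The genes and lists were chosen with earlier results of these data known. Named are the 7 genes, Park7, the 3 neighbours of Glo1, list genes with an unadjusted p under 0.05, the highest and lowest log2 fold change of each list among genes with at least 10 counts per library, and the 2 genes most correlated with each of the 7 that had at least 20. Akr1b10, Mdp1 and the genes sharing a 3′ end or a locus were named after their values were seen.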

Additional observations from a re-analysis of the deposited data

Results flagged for a closer look

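Among 52 groups of libraries examined for a value far from the others, 3 were picked out, where 2.6 are expected when chance picks 1 in 20. Ager had 1.16 cpm in DJ-1+/+ replicate 3, which is 1 count, where the other DJ-1+/+ libraries had 3.39 to 3.56 cpm. Ldhd, the D-lactate dehydrogenase gene, had 47.4 cpm (42 counts) in DJ-1+/+ replicate 4, where the others of that genotype had 30.9 to 32.6 cpm. This is the library with the highest choroid plexus genes, at 568 cpm, and the part of that tissue in the Ldhd value was not tested. Dnah8 had 1.16 cpm (1 count) in DJ-1+/+ replicate 3 and 0 in the others.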

How the results depend on the processing

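Over 18 or 19 alternative fits per gene, none of Glo1, Hagh, Haghl, Glod4, Akr1a1 and Ager reached an unadjusted p under 0.05, and Akr1b3 did so only without DJ-1+/+ replicate 2 (0 to 1 of the 7 genes when each library was left out). Haghl, Akr1a1 and Akr1b3 kept their direction in every fit that gave a value. With each library left out the log2 fold change of Haghl ran from −0.15 without DJ-1+/+ replicate 4 to −0.02 without DJ-1+/+ replicate 2, and that of Akr1a1 from 0.02 to 0.12, with differences in mean cpm of −12.7 to −1.46 and 2.42 (without DJ-1+/+ replicate 4) to 15.1 (without DJ-1-/- replicate 3). Log2 fold changes near 0 changed sign, and the cause was not tested. That of Glo1 was 0.00 without a filter and without DJ-1+/+ replicates 1 and 4, 0.02 with Xist as a covariate, 0.01 with thinned counts and −0.05 to 0.03 with each library left out. That of Hagh was −0.05 with thinned counts, −0.00 with the replicate block and −0.01 to 0.03 with each library left out. That of Glod4 was 0.00 without a filter and in libraries with Xist, 0.02 with Xist as a covariate, 0.03 without DJ-1+/+ replicates 1 and 4 and −0.06 to 0.06 with each library left out. The fitted value of Ager, a gene at the floor, was 0.09 with Xist as a covariate, 0.23 in libraries with Xist, 0.26 without DJ-1+/+ replicates 1 and 4 and −0.37 to 0.14 with each library left out. Differences in mean cpm (DJ-1-/- minus DJ-1+/+) changed sign likewise. With thinned counts they were 2.43 for Glo1 and −2.32 for Hagh. In libraries with Xist and without DJ-1+/+ replicates 1 and 4 they were 0.62 and 1.74 for Glod4 and 0.453 and 0.49 for Ager. With each library left out they ran from −4.64 to 3.03 for Glo1, from −3.97 to 3.83 for Glod4, from −0.7 to 0.34 for Ager and from −3.82 to −2.2 for Akr1b3.

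The number of the 7 genes without overlap between genotypes was 1 in libraries with Xist and 1 without DJ-1+/+ replicates 1 and 4 (Haghl in both). With each library left out it was 0 to 1, the 1 being Akr1b3 without DJ-1+/+ replicate 2 (exact permutation p = 0.0357, unadjusted). That replicate is the library by which Akr1b3 overlaps, and the p is the smallest that 3 against 5 allow. Of the list genes, 0 had an unadjusted p under 0.05 with DESeq2, filterByExpr or thinned counts, 3 in libraries with Xist, 2 without DJ-1+/+ replicates 1 and 4, 2 with the replicate block and 0 to 3 with each library left out. Of all genes, 235 did with DESeq2, 802 without a filter, 338 with filterByExpr, which tested fewer genes and left out Akr1b3 and Ager, and 338 to 732 with each library left out, the 732 without DJ-1+/+ replicate 2 and the 338 without DJ-1-/- replicate 2. The number of all genes called after adjustment was 1 with all libraries, 36 without a filter, 3 in libraries with Xist and 2 without either DJ-1+/+ replicate 2 or replicate 3. Same-numbered libraries share a number in their titles, and no other label links them. Their deviations from the genotype means correlated with r from −0.19 to 0.29 over 4 pairs, with 1 of 4 DJ-1+/+ libraries closest to its own number. So few correlations cannot tell whether such libraries were handled together. With the replicate block 569 genes had an unadjusted p under 0.05, 8 were called after adjustment, and none of them was among the 7.

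The 95% intervals, as multiples of the DJ-1+/+ level, were 0.887 to 1.12 for Glo1, 0.896 to 1.14 for Hagh, 0.834 to 1.08 for Haghl, 0.863 to 1.15 for Glod4, 0.937 to 1.19 for Akr1a1 and 0.242 to 1.1 for Akr1b3, and differences within them were not distinguished from none. Protein, enzyme activity and methylglyoxal itself were not measured in these libraries.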
